A study of Rattus norvegicus with 5 samples.

Results

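The expression of 44 genes of the complement and coagulation cascades was followed across 1 normal rat liver and 4 rat hepatocellular carcinoma lines on single-colour whole-genome CodeLink arrays. The genes were taken by name from a list of 44, through the gene symbols of the array's annotation, updated to current names. Of these, 38 genes had a probe of their own (53 of 33849 discovery probes); F11, F13b, Fga, Pros1, Kng1 and Cd59 matched no probe naming a single gene and were not analysed here. C5F and C6 metastasise little and N1 and L2 metastasise readily. Each line came from the liver tumour of a male F344 rat (31 weeks) that had received the carcinogens N-nitrosomorpholine and diethylnitrosamine, while normal liver was untreated tissue of strain SD, male, aged 50 weeks. One array was run per sample. The error given is therefore the spread between 2 different lines of a class, and the liver was not replicated. Strain, age, culture, tumour origin and slide all changed along with the contrast between lines and liver and cannot be told apart. In what follows C6 with the word line is the cell line, and C6 with the word gene is the complement gene.

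Most proteins of both cascades are made by hepatocytes and secreted into plasma as inactive precursors. Clotting runs through serine proteases activated in turn, of which F2, F7, F9, F10 and the anticoagulant Proc carry residues modified by a vitamin K dependent enzyme, and ends in a fibrin mesh built from fibrinogen. Complement is started by C1q, by mannose-binding lectins or by the alternative pathway, meets at C3 and ends in a membrane pore made of C5 to C9. A smaller group stays on cell membranes: tissue factor (F3) starts clotting, thrombomodulin (Thbd) turns thrombin towards anticoagulation, and Cd55 and Cd59 protect cells from complement. The list held 34 secreted hepatic factors, 4 membrane regulators and 6 factors made mainly by other cells (the C1q chains of macrophages, Cfd, Cfp and Tfpi).

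The liver transcription factors HNF1, C/EBP and the forkhead factors act on many of these genes, so the 250 bases before the start of each gene were read from the RefSeq promoter table (build GRCr8), which held 34 of the 44 genes. The HNF1 core GTTAAT, searched on both strands, was present before 11 of 34 genes (32.4%) against 6.45% of all 33469 promoters, and the C/EBP site TTGCNNAA also before 11 (32.4% against 9.22%). The forkhead site TGTTTAC was present before 5 genes (14.7% against 3.21%). The full palindromic HNF1 site, which contains that core, the HNF4 core CAAAGTC and the TATA box TATAAA were each present before 1 gene (2.94%, against 0.0448%, 3.95% and 12.9% of all promoters). These are letter matches and were not tested as binding sites. The upstream sequences of 6 genes are shown, each 250 bases, 5′ to 3′ on the gene's strand, with matches to the 6 motifs in capitals: F9, C5 and F12 were near background in every line, C8a was above background in every line but with one of the largest differences from liver, and F5 and C1r were above background in every line with smaller differences. They lie at chr5:124866632-124866881 (minus strand) for C8a, chrX:143388392-143388641 (plus strand) for F9, chr3:38759469-38759718 (minus strand) for C5, chr17:9212569-9212818 (plus strand) for F12, chr13:79046407-79046656 (plus strand) for F5 and chr4:159098763-159099012 (plus strand) for C1r.
C8a: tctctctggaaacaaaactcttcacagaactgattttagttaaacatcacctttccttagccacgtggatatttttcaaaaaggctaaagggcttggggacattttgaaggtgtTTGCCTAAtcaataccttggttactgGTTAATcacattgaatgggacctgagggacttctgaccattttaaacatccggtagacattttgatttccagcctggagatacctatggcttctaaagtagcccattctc
F9: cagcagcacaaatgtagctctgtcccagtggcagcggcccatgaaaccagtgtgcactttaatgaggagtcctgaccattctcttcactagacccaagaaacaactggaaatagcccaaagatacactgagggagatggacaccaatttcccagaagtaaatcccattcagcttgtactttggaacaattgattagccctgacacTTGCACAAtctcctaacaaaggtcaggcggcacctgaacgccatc
C5: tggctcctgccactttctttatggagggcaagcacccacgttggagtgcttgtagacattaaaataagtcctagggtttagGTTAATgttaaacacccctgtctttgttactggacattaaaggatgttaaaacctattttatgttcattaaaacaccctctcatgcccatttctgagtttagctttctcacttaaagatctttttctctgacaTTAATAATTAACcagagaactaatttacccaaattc
F12: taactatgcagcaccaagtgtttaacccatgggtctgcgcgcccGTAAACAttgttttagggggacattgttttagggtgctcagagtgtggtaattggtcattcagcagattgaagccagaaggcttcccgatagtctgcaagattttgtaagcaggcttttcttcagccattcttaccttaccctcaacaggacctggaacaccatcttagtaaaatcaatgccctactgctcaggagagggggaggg
F5: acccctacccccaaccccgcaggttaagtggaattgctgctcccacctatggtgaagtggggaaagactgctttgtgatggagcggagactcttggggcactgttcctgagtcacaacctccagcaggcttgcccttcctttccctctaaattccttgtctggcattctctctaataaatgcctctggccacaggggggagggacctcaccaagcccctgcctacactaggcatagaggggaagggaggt
C1r: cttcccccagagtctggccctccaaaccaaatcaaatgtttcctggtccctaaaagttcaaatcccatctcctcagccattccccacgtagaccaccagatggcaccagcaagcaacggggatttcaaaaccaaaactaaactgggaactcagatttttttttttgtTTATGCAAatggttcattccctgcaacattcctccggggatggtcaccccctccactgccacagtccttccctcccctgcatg
The C8a stretch held a C/EBP match and an HNF1 core, and the C5 stretch the full HNF1 site within 36 bases of the start. F9 and C1r each held 1 C/EBP match, at 45 and 83 bases before the start at their outer ends, and F12 a forkhead match. The F5 stretch matched none of the 6 motifs.

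Values are log2 of the quantile-normalised signal, floored at a signal of 2.53 (log2 1.34), the median of spots the scanner software called near background. A spot is called above background by that software, and spots it called irregular, contaminated or masked were not used. Of all usable spots 33.5% exceeded background on the liver array, and 36.2% to 43.3% did so on the line arrays. Of 8 hepatocyte markers, all 7 with a usable liver spot were above background there, so the tissue label of the liver fits its markers. In C5F 5 of 7 usable spots were above background. In the C6 line it was 0 of 7, in N1 1 of 8 and in L2 0 of 7. Summed signal was 32951 in liver, 2012 in C5F and 13.3 to 61.0 in the others. C5F read 10.02 for Apoa1, 8.90 for Tf and 8.71 for Ttr. Liver read 13.36 for Tf and 12.59 for Ttr, and its Apoa1 spot was not usable. Alb exceeded background in no line. C5F thus held most of its usable markers at a lower summed signal, and the other lines held few or none. Lines and liver were compared in 1 limma model over all tested probes with Benjamini-Hochberg adjustment, which takes the liver's unmeasured variance to equal that of the lines. Fewer cells of a type and less RNA per cell cannot be told apart in these bulk samples.

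**Figure D1:**
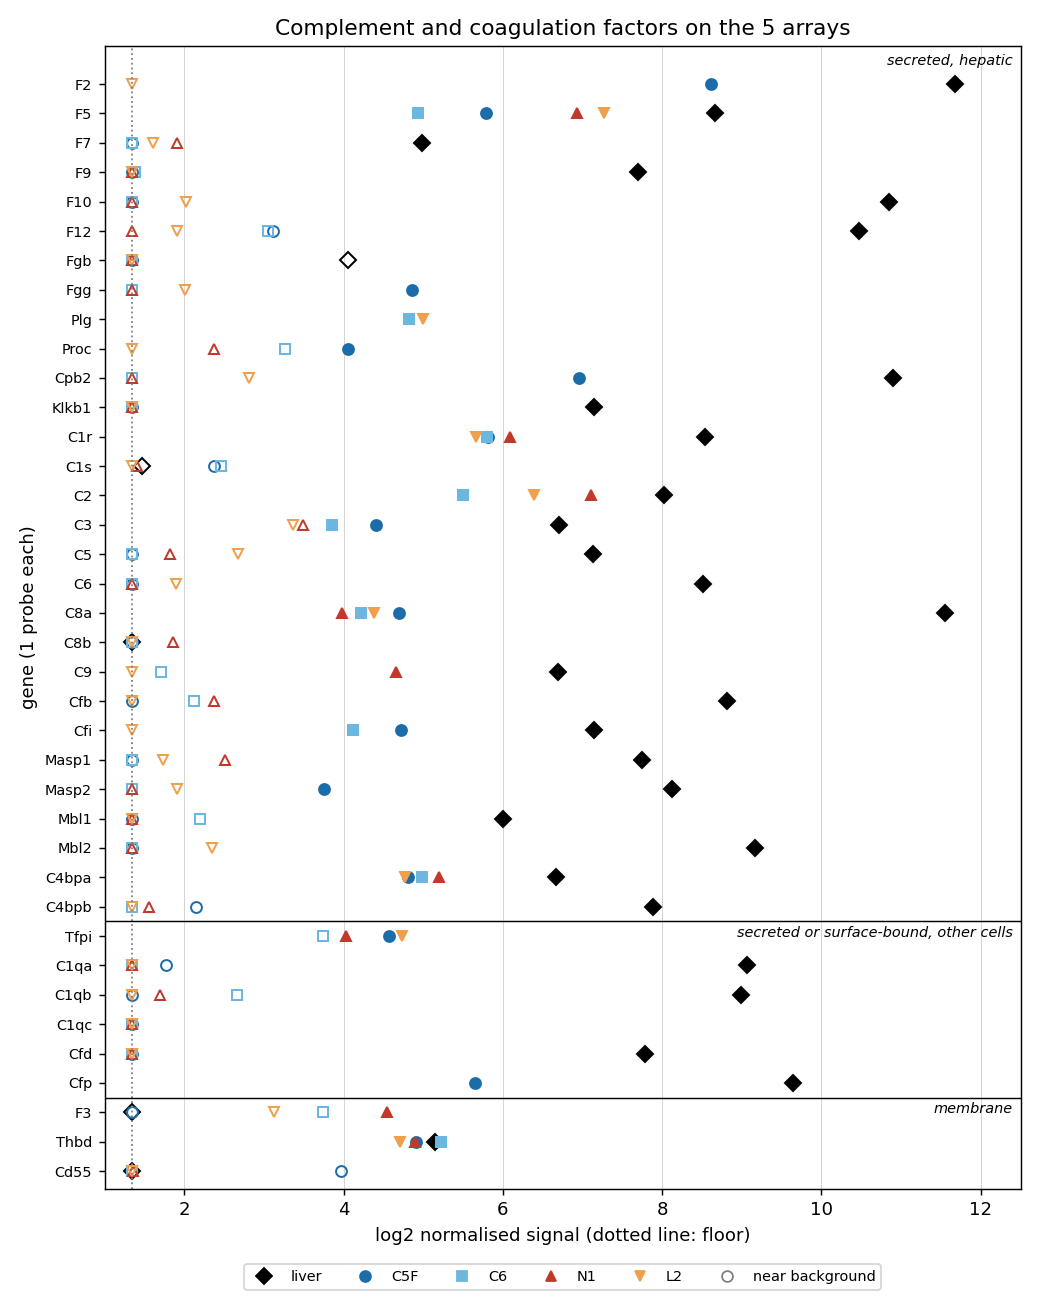
Log2 normalised signal (x axis) of the 38 genes with a probe (y axis), 1 symbol per array, filled where the spot was above background and open where near it; unusable spots are left out. The liver symbols of most secreted factors lie far to the right of those of all 4 lines, whereas the Thbd symbols of all 5 arrays lie between 4.71 and 5.23.

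Of the 44 genes, 28 were above background in liver, and 8 to 14 in any one line. Among 26 genes that could be tested, 22 fell in the lines and 0 rose by limma, where 9.38% of all tested probes fell and 9.01% rose. All 26 pointed lower, with a median log2 difference of −6.02 against 0.15 over all tested probes. Adding 50 to every signal before the log shrank it to −2.34, and without the filter 27 of 31 genes pointed lower. The filter on dim probes let 18 of the 26 pass through liver alone, which had to be higher there: 16 of these fell, against 54.8% of all probes that passed in that way. Of the 8 that passed through 2 or more lines, 6 fell (F5, C1r, C3, C8a, Cfi and C4bpa), against 3.18% of such probes. For 15 of the 22 genes all 4 lines were near background, so that the fitted difference depends on the floor, as it does in part for genes near background in some lines, and the fold is given as a bound, with the dimmest above-background signal of each array in place of the lines' values. Leaving out any 1 line left a class with 1 line, and fewer probes were then called over the whole array, these genes included. Every gene tested still pointed lower. The median difference was −6.36 without C5F, −6.04 without the C6 line, −6.26 without N1 and −6.26 without L2.

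**Figure D2:**
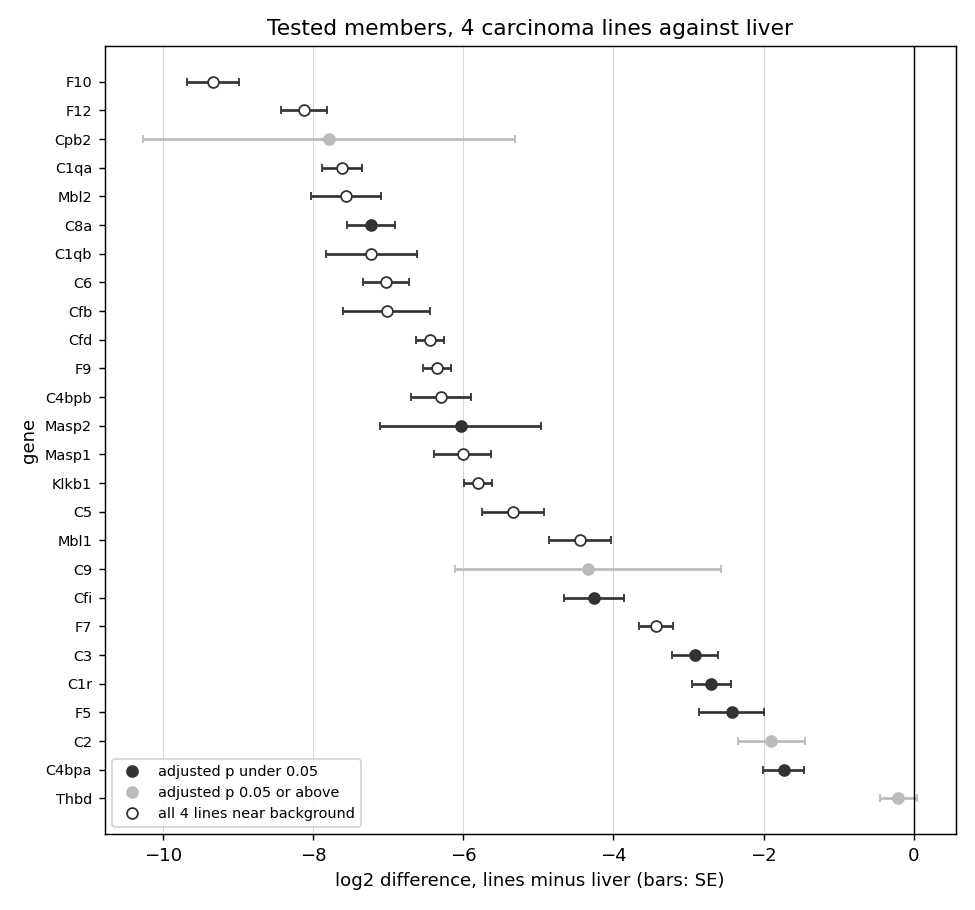
Log2 difference of the 4 lines from liver (x axis) with its SE for the 26 tested genes (y axis), dark where the limma adjusted p was under 0.05 and open where all 4 lines were near background. The genes run from −9.34 for F10 to −0.21 for Thbd, and the 4 grey genes did not pass the test.

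Among the clotting proteases, F7, F9, F10 and F12 were above background in liver and near background in all 4 lines. F10, which forms prothrombinase with F5, stood at 10.85 in liver and near background in all lines, at least 171-fold lower (limma adjusted p = 0.00683); its second probe, at 8.58 in liver, gave at least 35.4-fold. F9, the factor missing in haemophilia B, stood at 7.70 in liver and was at least 19.3-fold lower (limma adjusted p = 0.00646). F7, the partner of tissue factor, was dim in liver as well, at 4.98, and at least 2.93-fold lower (limma adjusted p = 0.0106). F12, the contact factor Hageman factor, stood at 10.48 in liver and was at least 129-fold lower (limma adjusted p = 0.00683).

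Prothrombin (F2), the precursor of thrombin, kept a signal in 1 line. Its log2 signal was 11.67 in liver and 8.61 in C5F, near background in L2, and unusable in the C6 line and N1. With irregular spots kept, the C6 line read 7.0 and N1 5.98, and the difference of −5.93 ± 2.08 (SE) had a limma adjusted p of 0.133. The liver was above all 4 lines, which ranged from 8.61 down to the floor.

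F5, the cofactor of F10, was the clotting factor that stayed above background on every array. It read 8.66 in liver, 5.79 in C5F, 4.94 in the C6 line, 6.93 in N1 and 7.27 in L2. Liver was above all lines, and both high-metastatic lines were above both low-metastatic ones. The difference, lines minus liver, was −2.43 ± 0.43 in log2 units (SE; limma adjusted p = 0.0456), and the second probe gave −2.42. Its adjusted p was the highest of the 22, and its limma adjusted p was 0.0829 with scaling to the median of probes above background, 0.0519 with scaling to the 75th percentile, 0.0552 with irregular spots kept, 0.115 without the filter, 0.156 with the 4 lines as 1 group and 0.114 on the second probe.

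Fibrinogen was measured poorly. Fgb, the beta chain, was near background on all 5 arrays. Fgg, the gamma chain, was above background in C5F alone, at 4.86; its liver spot was irregular and read 7.03 when kept. Neither passed the filter.

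Of the contact and fibrinolytic factors, Klkb1, plasma prekallikrein, stood at 7.15 in liver and was at least 13.1-fold lower, near background in all lines (limma adjusted p = 0.0067). Cpb2, a carboxypeptidase that slows fibrinolysis, read 10.90 in liver and 6.96 in C5F and was near background in the C6 line, N1 and L2. Its difference of −7.79 ± 2.48 did not pass (limma adjusted p = 0.117, or 0.0265 with an offset of 50, where the difference was −4.78), and C5F was the lone line above background. Plg, plasminogen, had irregular liver spots on both probes. Kept, they read 9.20 and 6.52, and the lines then ranged from the floor to 3.39 on the brighter probe and from 4.81 to 5.37 on the other, where N1 was masked, so the probes disagreed. Proc, protein C, was above background in C5F alone (4.06), and its irregular liver spot read 8.59.

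The complement proteases and lectins included genes near background in every line and genes above it in some or all. Masp1, a lectin pathway protease, stood at 7.74 in liver and was at least 19.9-fold lower (limma adjusted p = 0.0102; at least 8.1-fold on a second probe). The remaining Masp1 probe was near background on all arrays, liver included. Masp2, which cleaves C2 and C4, read 8.12 in liver and 3.76 in C5F and was near background elsewhere (−6.03 ± 1.07, limma adjusted p = 0.0453, and 0.0592 and 0.128 with scaling to the median of probes above background and without the filter). On its second probe C5F was near background too, with the lines at least 20.3-fold lower. The remaining Masp2 probe was near background on all arrays. The mannose-binding lectins Mbl2, at 9.16 in liver, and Mbl1, at 6.0, were near background in all lines and at least 53.1-fold and 5.94-fold lower (limma adjusted p = 0.01 and 0.0169).

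C1r, a protease of the first complement complex, was above background on every array. It read 8.54 in liver, 5.82 in C5F, 5.80 in the C6 line, 6.09 in N1 and 5.67 in L2, a difference of −2.70 ± 0.26 (limma adjusted p = 0.0182). All 4 lines lay between 5.67 and 6.09, below the liver. C2, a convertase protease, read 8.02 in liver, 5.50 in the C6 line, 7.11 in N1 and 6.39 in L2, with no usable spot in C5F; its difference of −1.90 ± 0.45 did not pass (limma adjusted p = 0.106). C1s, the partner of C1r, was near background on all 5 arrays, so no difference can be given for it.

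The central and terminal components that could be tested pointed lower in the lines, and all but C9 passed the test. C3, on which all pathways meet, read 6.70 in liver, 4.41 in C5F and 3.86 in the C6 line, and was near background in N1 (3.49) and L2 (3.37). Its difference was −2.92 ± 0.31 (limma adjusted p = 0.0204); on its second probe all lines were near background and at least 12-fold lower. C5, the source of a pore-starting fragment and an inflammatory peptide, stood at 7.13 in liver and was at least 13-fold lower (limma adjusted p = 0.0131), while a second C5 probe was near background on all arrays. The C6 gene, a pore subunit, stood at 8.51 in liver and was at least 33.8-fold lower (limma adjusted p = 0.007).

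C8a, another pore subunit, fell from 11.55 in liver to 4.70 in C5F, 4.22 in the C6 line, 3.98 in N1 and 4.38 in L2, above background on every array. This difference, −7.23 ± 0.32 (limma adjusted p = 0.00703), was measured above background on both sides. C9, which lines the pore, read 6.69 in liver and 4.66 in N1 and was near background in the C6 line and L2 (−4.34 ± 1.77, limma adjusted p = 0.216). Its irregular C5F spot read 4.70 when kept. C8b was near background on all 5 arrays.

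Of the alternative pathway and the soluble regulators, Cfb, the protease of the alternative convertase, stood at 8.81 in liver and was at least 41.7-fold lower (limma adjusted p = 0.0148). C4bpb, the beta chain of C4b-binding protein, stood at 7.89 and was at least 22-fold lower (limma adjusted p = 0.0102). Its alpha chain C4bpa instead read 6.67 in liver and 4.81, 4.99, 5.19 and 4.77 in C5F, the C6 line, N1 and L2, a difference of −1.73 ± 0.27 (limma adjusted p = 0.0383, and 0.0579 with the authors' normalised intensity or 0.0734 without the filter). A second C4bpa probe gave −3.37. Cfi, the protease that cuts C3b and C4b, read 7.14 in liver, 4.72 in C5F and 4.11 in the C6 line and was near background in L2. Its difference of −4.27 ± 0.40 (limma adjusted p = 0.034) lacked N1. With that irregular spot kept at 5.43 it was −3.16 ± 1.75 (limma adjusted p = 0.27), and the call was also lost with scaling to the median of probes above background (0.0549), without the filter (0.116) and with the 4 lines as 1 group (0.188).

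The 3 tested factors of other cells fell. C1qa and C1qb, chains of the C1q molecule, stood at 9.07 and 8.98 in liver and were near background in all lines, at least 49.8-fold and 47-fold lower (limma adjusted p = 0.00683 and 0.0152). C1qc was at the floor in all lines, and its irregular liver spot read 8.37. Cfd, the alternative pathway protease known as adipsin, stood at 7.79 and was at least 20.5-fold lower (limma adjusted p = 0.00629). Cfp, properdin, read 9.64 in liver and 5.65 in C5F, with irregular spots in the other lines; with these kept the lines ranged from 5.51 to 5.80 and the difference was −3.93 ± 0.21 (limma adjusted p = 0.0102).

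Markers of the liver's macrophages were counted beside the C1q chains, and 3 of 5 tested (Clec4f, Csf1r and Adgre1) fell by limma, where 9.38% of all tested probes fell. Csf1r and Adgre1 passed the filter through liver alone, where 54.8% did. Clec4f read 11.03 in liver and stayed above background in all lines, at 4.37 to 4.65. Lyz2 was near background on all arrays. Of 6 measured Kupffer cell markers 5 were above background in liver and 2 in each line, with summed signals of 3441 in liver and 52.6 to 77.8 in the lines, and Adgre1 was at the floor in all lines. Cd163 differed by −0.94 and Cd68 by −5.39, which did not pass (limma adjusted p = 0.299 and 0.0567). Of 6 endothelial markers, all 5 with a usable liver spot were above background there, and 1 or 2 in each line. Their summed signal over usable spots was 565 in liver and 22.1 to 47.4 in the lines, with Stab2 at the floor in all lines. Pecam1, whose liver spot was irregular, was above background in all 4 lines (4.02 to 4.40). Tie1 differed by −4.25 ± 1.39 and did not pass (limma adjusted p = 0.124). Of 6 stellate and fibroblast markers 4 were above background in liver and 0 or 1 in each line, where 4 to 6 spots were usable (summed signal 561 in liver, 137.5 in C5F, 44.1 in the C6 line, 191 in N1 and 0.377 in L2). Col1a1 read 7.56 in liver, 7.10 in C5F and 7.49 in N1 and was not usable in the C6 line and L2. The part of these markers in the C1q, Cfp and Cfd differences was not tested.

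Of the membrane regulators, Thbd alone was above background in liver, and its level did not pass the test. Thbd read 5.14 in liver, 4.91 in C5F, 5.23 in the C6 line, 4.90 in N1 and 4.71 in L2, above background on every array. The difference of −0.21 ± 0.25 did not pass (limma adjusted p = 0.579), and the liver lay within the range of the lines; a second Thbd probe was near background on all arrays. F3 was above background in N1 alone, at 4.55, and near background in liver, C5F, the C6 line (3.74) and L2 (3.13). Cd55 was near background on all 5 arrays, with C5F at 3.96 and the other 4 arrays at 1.34 to 1.36. Neither F3 nor Cd55 passed the filter, so the membrane group has 1 tested gene with 0 calls, against 22 tested secreted hepatic factors with 19 falls and 3 tested factors of other cells with 3 falls. Thbd passed the filter through the lines, where 3.18% of all probes fell, while 13 of the 19 secreted factors and all 3 others that fell had passed through liver alone, where 54.8% did. With a lone tested gene, the difference between the groups was not tested. Tfpi, the secreted or surface-bound inhibitor of tissue factor, read 4.56 in C5F, 4.03 in N1 and 4.73 in L2 and was near background in the C6 line (3.74); its irregular liver spot read 6.0, which gave −1.73 ± 0.52 (limma adjusted p = 0.103). A second Tfpi probe was near background in liver (4.30) and above it in C5F alone (4.07), and the remaining probe was near background on all arrays.

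Wider lists of membrane receptors and regulators and of secreted factors were counted in the same way. Of 18 measured membrane genes 8 were tested, of which 2 fell and 2 rose by limma (median −0.31), and of 18 measured secreted genes 12 were tested, of which 5 fell and 0 rose (median −2.84), where 9.38% of all tested probes fell and 9.01% rose. The share that changed was not compared between these lists. Plaur, the urokinase receptor that gathers plasmin activity at the cell surface, was near background in liver and read 6.74, 7.76, 7.45 and 7.95 in C5F, the C6 line, N1 and L2, at least 12.1-fold higher (limma adjusted p = 0.021). Anxa2, a surface docking site of plasminogen, was at the floor in liver and read 4.23 to 5.29 in the lines, at least 1.78-fold higher (limma adjusted p = 0.0159). Plaur and Anxa2 passed the filter through the lines alone, which favours a rise. The share of such probes that rose was not counted. Cr1l, the rodent membrane complement regulator Crry, read 7.06 in liver, 7.15 in C5F, 7.67 in the C6 line and 7.23 in L2 (0.26 ± 0.37, limma adjusted p = 0.653). F2r, a thrombin receptor, had no usable liver spot and read 6.84 in C5F, 9.90 in the C6 line, 9.59 in N1 and 10.27 in L2. Those that fell were Asgr1, a hepatocyte lectin receptor at 9.39 in liver, 5.45 in C5F and near background in the other lines (limma adjusted p = 0.034, with a difference that depends on the floor), and Itgb2, the leukocyte integrin chain of complement receptors (at least 8.45-fold, limma adjusted p = 0.015). Asgr1 and Itgb2 had passed the filter through liver alone, where 54.8% of all probes fell.

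**Figure D3:**
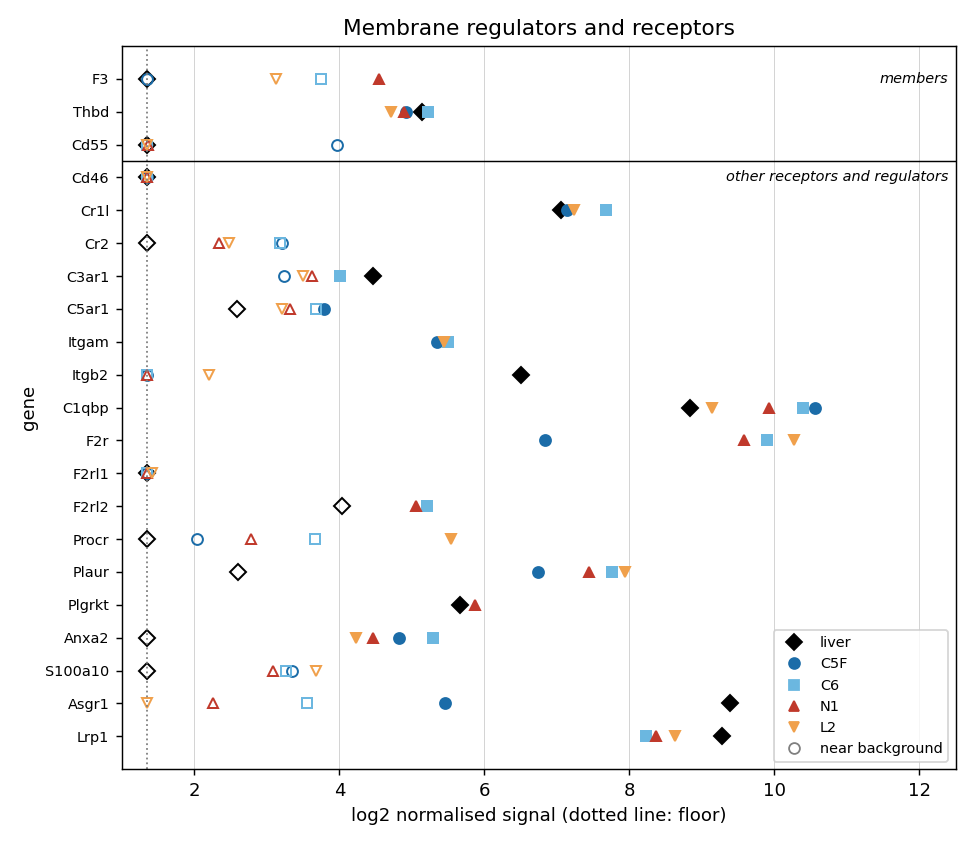
Log2 normalised signal (x axis) of the 3 membrane members and 18 further receptors and regulators (y axis), 1 symbol per array, filled where above background. Plaur and Anxa2 lie to the right of liver in all lines, Asgr1 and Itgb2 to the left, and the Thbd and Cr1l symbols lie close to liver.

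Of the secreted genes of the wider list, the 3 with the largest called falls were inhibitors, while the inhibitors A2m, Serpina5, Serpine2 and Serpina10 did not pass (limma adjusted p = 0.0505, 0.0699, 0.0859 and 0.105). Serping1, the inhibitor of C1r and of kallikrein, stood at 10.24 in liver and was at least 112-fold lower (limma adjusted p = 0.007). Vtn, vitronectin, which blocks the complement pore, stood at 11.07 and was at least 199-fold lower (limma adjusted p = 0.0102). Serpind1, a thrombin inhibitor, fell by 4.86 ± 0.24 but stayed above background in all lines at 4.80 to 5.18 (limma adjusted p = 0.0079). Serping1 and Vtn had passed the filter through liver alone, where 54.8% of all probes fell. Serpind1 passed through the lines as well, where 3.18% did.

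Set against the array as a whole, the share of the genes above background was higher than that of all probes in liver and lower in each line. In liver 28 of 33 usable spots (84.8%) were above background, against 33.5% of all probes. In C5F it was 14 of 35 (40%, against 43.3%), in the C6 line 9 of 36 (25%, against 37.7%), in N1 9 of 34 (26.5%, against 36.2%) and in L2 8 of 37 (21.6%, against 39%). Of 23 genes above background in liver and usable everywhere, 15 were near background in all 4 lines (65.2%, against 17% of all such probes), and 5 (F5, Thbd, C1r, C8a and C4bpa) were above background in all 4 (21.7%, against 60.4%). The genes were not independent of each other and these shares carry no test.

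**Figure D4:**
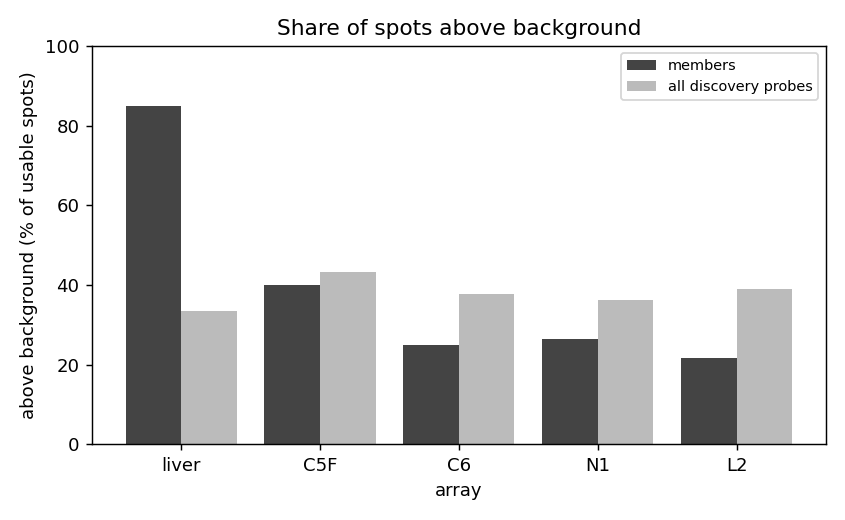
Share of usable spots above background (y axis, percent) on each array (x axis) for the genes with a probe (dark) and for all discovery probes (light). The dark bar falls from 84.8% in liver to 40% in C5F and 21.6% to 26.5% in the other lines.

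C5F had the most factors above background among the lines, 14 against 8 or 9. It also had the largest share of all usable spots above background, 43.3%, against 36.2% to 39% in the other lines. The share of the factors in C5F, 40%, was below its share of all spots. The dimmest signal called above background was also lowest in C5F, at 7.87, against 11.18 to 13.04 in the other lines. The part of these array differences in the count was not tested. Cpb2 and Masp2 were above background in C5F alone of the lines (2 of 23, or 8.7%, against 4.04% of all such probes), and Fgg and Proc also had their one line signal there. Of 9 genes that passed the filter, were usable in all lines and were above background in at least 1, C5F was the highest line for Cpb2, C3, C8a and Masp2 (4 of 9, or 44.4%, against 23.5%). Relative to liver, C5F was at least 2-fold lower for 25 of 26 genes with a usable pair (against 20.8% of all probes), the C6 line for 25 of 26 (22.1%), N1 for 23 of 26 (21.4%) and L2 for 26 of 27 (23%). The median log2 difference over these genes was −5.77 in C5F, −6.32 in the C6 line, −6.07 in N1 and −6.22 in L2. At least 2-fold higher were 0 genes in C5F (against 29.4% of all probes), 0 in the C6 line (26.2%), 1 in N1 (26.9%) and 0 in L2 (25.8%). The 1 gene was F3, whose liver spot was at the floor, so that its fold is set by the floor.

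Between the high- and low-metastatic lines, 0 of 27 tested genes passed limma (adjusted p from 0.67 to 1), and 3 had an unadjusted limma p under 0.05, against 0% and 7.31% of all tested probes. F5 pointed higher in N1 and L2, by 1.74 ± 0.39 in log2 units (SE; limma adjusted p = 0.67), by 1.58 ± 0.63 on its second probe, where L2 was unusable, and by 1.31 to 2.17 when each line was left out in turn. Cfi had a difference, high minus low, of −3.07 ± 0.42 with L2, at the floor, as the lone high-metastatic line, so its size is set by the floor (limma adjusted p = 0.67), which became −1.01 ± 1.56 with the irregular N1 spot kept. F12, with −1.46 ± 0.28, was near background in all 4 lines and so gives no measured difference. Of the 9 genes above, usable in all lines, Thbd and C3 had both low-metastatic lines above both high-metastatic ones (22.2%, against 20.3% of all such probes) and F5 the reverse (11.1%, against 18.2%), shares near those of the array.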

How the data were processed

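Each RNA sample was hybridised to its own CodeLink Rat Whole Genome slide. Per the file headers, CodeLink Expression Analysis gave a raw intensity per spot with local background already subtracted; the authors also deposited a normalized intensity, equal to raw intensity over the array median, which their value table repeats (largest difference 0).

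Here control spots were dropped, irregular, contaminated and masked spots were set to missing, and raw intensity was quantile normalised with limma 3.58.1 (R 4.3.3; data.table, version 1.17.8), floored and put on the log2 scale. A filter kept 16377 probes that exceeded background in liver or in 2 or more lines. One limma model with 3 groups gave both contrasts, the mean of both classes minus liver (11949 probes) and high minus low (13741 probes), two-sided at 0.05. A gene was represented by its brightest probe on average. Symbols were updated through Entrez numbers in RefSeq (12178 of 12202 matched). The number of arrays limits the precision, and p-values measure only the spread between lines.

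The members and wider lists were chosen with earlier results of these data known. Every member with a probe is described, and up to 3 genes per wider list and direction with the largest called difference. Cr1l, F2r, Nr1h4 and Mcfd2 were named after their values were seen. So were the markers Apoa1, Pecam1 and Tie1 and the other transcription factors and vitamin K genes given below. The model was tested on simulated data, where liver was drawn with the spread of the lines and only probes well above the floor were changed. That simulation cannot show how the model does with the liver's own variance or with floored genes. Each slide held 1 array, so no slide term could be fitted. Alternatives were 3 other scalings, an offset of 50, irregular spots kept, no filter, the lines as 1 group, the dimmest probe and each line left out.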

Additional observations from a re-analysis of the deposited data

How the results depend on the processing

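No paired analysis was possible because replicate numbers were given in accession order and pair nothing. The count of members that fell, 22, was 17 to 23 under the 8 alternatives that kept all arrays, and 0 rose under each. The 7 of these with a class contrast called 0 members between the classes. Without the filter 27 of 31 tested members pointed lower, against 26 of 26. With any 1 line left out, 0 to 13 members fell and 0 to 4 companion genes changed, against 11 with all arrays. Of 297 repeated differences from liver, 0 turned direction, 73 lost and 1 gained the call. The offset of 50 moved the median difference from −6.02 to −2.34. Scaling to the median of probes above background moved the median over all tested probes from 0.15 to 0.29. Between the classes, where no member passed, the direction turned for C1r (−0.12 and −0.079 with scaling to the median of probes above background and to the 75th percentile, −0.026 with irregular spots kept), C9 (−0.23 with irregular spots kept) and C4bpa (−0.51 on its other probe). Leaving out each line, the class difference ranged across 0 for C1r (−0.14 to 0.28), C4bpa (−0.14 to 0.30), Cpb2 (−4.82 to 0.69), Cfb (−0.40 to 0.63), Masp2 (−2.13 to 0.25), C4bpb (−0.70 to 0.080), Tfpi (−0.18 to 0.67) and C1qb (−1.08 to 0.18); the cause was not tested. Signals below the floor have no order.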

Other observations

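The transcription factors that act on these genes in liver were followed as well. Of 9 measured factors 4 were tested and 2 fell by limma, where 9.38% of all tested probes fell. Hnf4a read 7.07 in liver, 5.41 in C5F, 5.13 in the C6 line, 4.96 in N1 and 4.50 in L2 (−2.07 ± 0.30, limma adjusted p = 0.0332), above background on every array. Foxa1 stood at 6.05 in liver and was at least 6.15-fold lower, near background in all lines (limma adjusted p = 0.0119); it passed the filter through liver alone, where 54.8% of all probes fell. Nr1h4, the bile acid receptor, read 8.92 in liver, 4.0 in the C6 line and 3.94 in N1 and was at the floor in C5F and L2 (limma adjusted p = 0.0809). Onecut1 differed by −0.63 ± 0.57 (limma adjusted p = 0.472). Foxa3 read 6.28 in liver, 5.61 in C5F and 5.97 in the C6 line, with irregular spots in N1 and L2. Foxa2 and Stat3 had irregular liver spots and were above background in every line with a usable spot. Cebpa was near background in liver (2.75) and above it in C5F alone (3.79). Nr5a2 was near background on all arrays.

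The machinery that modifies and exports clotting factors was above background for 6 of 6 genes with a usable spot in liver, 5 of 6 in C5F, 6 of 6 in the C6 line, 5 of 6 in N1 and 8 of 8 in L2. Of all probes 33.5% were so in liver and 36.2% to 43.3% in the lines. None of its 4 tested genes passed limma adjustment (adjusted p from 0.0664 to 0.614), where 9.38% of all tested probes fell and 9.01% rose. Mcfd2 and Furin had an unadjusted limma p under 0.05. Ggcx and Vkorc1 could not be tested. Ggcx read 7.18 in liver, 6.60 in N1 and 5.10 in L2, and Vkorc1 8.55 in liver, 7.13 in C5F and 5.39 in L2. Vkorc1l1 pointed higher, by 0.59 ± 0.21 (limma adjusted p = 0.145). Mcfd2, a cargo receptor of F5 and F8, pointed lower by −1.86 ± 0.31, from 9.61 in liver to 7.40 to 7.94 in the 3 lines with a usable spot.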
